A study of Mus musculus with 54 samples.

Results

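Imprinted genes are expressed mainly or only from the maternally or the paternally inherited copy, some of them only in certain tissues. Of these genes, 45 from 16 clusters outside the Grb10 and H19 domains were examined for CTCF and cohesin peaks. A gene was taken to hold a peak when the peak summit lay between 10 kb upstream of its annotated start and its end, and the 45 genes were compared with all 55450 annotated mouse genes. Peaks that overlapped in any of the 44 libraries were merged into sites. Of 75882 sites in all, 168 lay in the window of at least 1 imprinted gene, and 36 of these lay in the windows of 2 or more.

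The starting ESCs were mouse embryonic stem cells of the E14TG2a (E14) line, and 2 days of differentiation turned them into neural progenitor cells (NPCs). Rescue cells had an mAID-eGFP degron on each endogenous copy of CTCF, OsTIR1(F74G) was present at Rosa26, and a doxycycline-inducible Flag-Halo CTCF transgene stood at Tigre. These lines also carried an mCherry reporter joined to Hb9 through a self-cleaving peptide. The transgene lacked zinc finger 1 in the NPC-ΔZF1 and ESC-ΔZF1 groups and was intact in the NPC-WT and ESC-WT groups, and each rescue line was a single clone. All rescue cells received 1 µM 5-Ph-IAA, which triggers loss of the endogenous protein, and 1 µg/ml doxycycline for 24 hours. In the Podxl pA and Grb10 pA lines a homozygous eGFP cassette, joined through such a peptide, with an SV40 polyadenylation signal truncated the Podxl or the Grb10 RNA, and they were set against parental E14 cells, all as NPCs. Each rescue group had 4 CTCF, 2 Smc3 and 2 Rad21 libraries, and each Podxl pA, Grb10 pA and E14 group had 2 CTCF and 2 Smc3 libraries. Cell identity cannot be checked against marker genes in peak lists, and the maternal and paternal chromosomes were not separated, so a call may come from either or both.

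CTCF is a zinc finger protein that binds DNA and, with the cohesin ring that holds the subunits Smc3 and Rad21, anchors chromatin loops. Imprinted clusters are controlled by regions whose DNA is methylated on a single parental copy. CTCF binding can be blocked by methylation of its motif, and at some imprinted clusters it insulates promoters from enhancers on a single parental copy.

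The CTCF lists held 5755 to 45941 peaks in the rescue lines and 15505 to 28805 in the E14, Podxl pA and Grb10 pA lines. The Smc3 lists held 8169 to 34104 and 10005 to 15626 peaks in the same sets, and the Rad21 lists 1306 to 10415. The 4 NPC-ΔZF1 CTCF lists (13639, 10242, 5755 and 33452 peaks in replicates 1 to 4) included the shortest of all CTCF lists, and the NPC-WT lists held 30555, 21339, 24908 and 15052. Among CTCF libraries of the rescue lines, replicates 1 and 4 had median peak widths of 352 to 447 bp and replicates 2 and 3 of 190 to 301 bp. The labels name no batch, and this split by peak width is followed below as a batch. A site that is not listed was not called in that library, which does not show that it was unbound. Enrichment at a called site is given as a percentile, the percentage of peaks in the same list with a lower fold enrichment. Fold enrichments of different lists share no common scale. A percentile also depends on how many weak peaks its list holds, so percentiles from lists of different length are not strictly comparable. The part of list length in the percentile differences below was not tested.

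The DNA under the member sites was read first. A core CTCF motif of 14 bases with at most 2 mismatches, searched on both strands of the 101 bp window at the site centre, was present at 52.4% of the 126 member sites with a CTCF peak. It was present at 62.1% of all 68058 CTCF sites and in 2.92% of windows 1000 bp away from them. The sequences below are motif matches that the results turn on, chosen because they carry the Dlk1-Meg3, Kcnq1, Zrsr1, Peg13-Trappc9 and Peg3 cluster sites. Each shows 30 bases of the RefSeq GRCm38 (mm10) reference on the strand of the motif, with the motif core in capitals, and is named by its nearest imprinted gene and the distance in bp from that gene's start.
Dlk1 +928 (chr12:109453723-109453752, minus strand): aagccaaaCCGCCAGGGGGGGCtcaccata
Meg3 +1181 (chr12:109542162-109542191, plus strand): attgatggCCGCAAGAGGGCGCtggtggca
Meg3 +2038 (chr12:109543030-109543059, minus strand): catagagaCCGCTAGGGGGCGCgcggcccg
Cdkn1c -3034 (chr7:143464070-143464099, minus strand): caagtcggCCACCAGGGGGCAGcatgaagc
Cdkn1c -5454 (chr7:143466488-143466517, minus strand): gtctctgaCCACCAGGGGGCAGaatgactc
Slc22a18 +6965 (chr7:143480692-143480721, plus strand): agggagttCCACCAGGGGGCGCtacagtga
Zrsr1 -6179 (chr11:22965802-22965831, plus strand): cagacatgCCACTAGAGGGCATcggatccc
Peg13 +203 (chr15:72810077-72810106, minus strand): gttcctacCCGGTAGAGGGCGCcgcagaat
Trappc9 -7838 (chr15:73069031-73069060, plus strand): acatgtgaCCACCAGGTGGCAGaaggtgtt
Usp29 +187901 (chr7:6918451-6918480, minus strand): gcaagctgCCAGTAGAGGGCACccgcgatc
Usp29 +206754 (chr7:6937306-6937335, minus strand): gtcatcggCCAGCAGGTGGCGCacatagga
Usp29 +210361 (chr7:6940927-6940956, plus strand): acttgctgCCACCAGATGGCGGtagacacc
Both Meg3 cores and the Peg13 core hold 2 CpG dinucleotides, the Dlk1 and Slc22a18 cores and the Usp29 cores at +206754 and +210361 bp hold 1, and both Cdkn1c cores, the Zrsr1 and Trappc9 cores and the Usp29 core at +187901 bp hold 0. The reference sequence says nothing of methylation in these cells. The plus strand is that of the reference chromosome and not of the gene.

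Of the 168 member sites, 126 had a CTCF peak in at least 1 of 22 libraries, 104 had an Smc3 peak in at least 1 of 14 and 48 had a Rad21 peak in at least 1 of 8. CTCF and Smc3 were both called at 80 sites, 45 had CTCF with no cohesin call, 23 had Smc3 alone and 18 had Rad21 alone. The CTCF sites lay in introns (65), upstream of the gene (30), in untranslated regions (14), in other exons (9) and in coding sequence (8), and 28 lay within 1 kb of a member's start. Of the 126, 4 (3.17%) were called in all 22 CTCF libraries, 16 (12.7%) in 18 to 22 and 38 (30.2%) in 1 or 2. Over all 68058 CTCF sites these shares were 2.77%, 10.9% and 33.9%, close to those of the members.

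**Figure D1:**
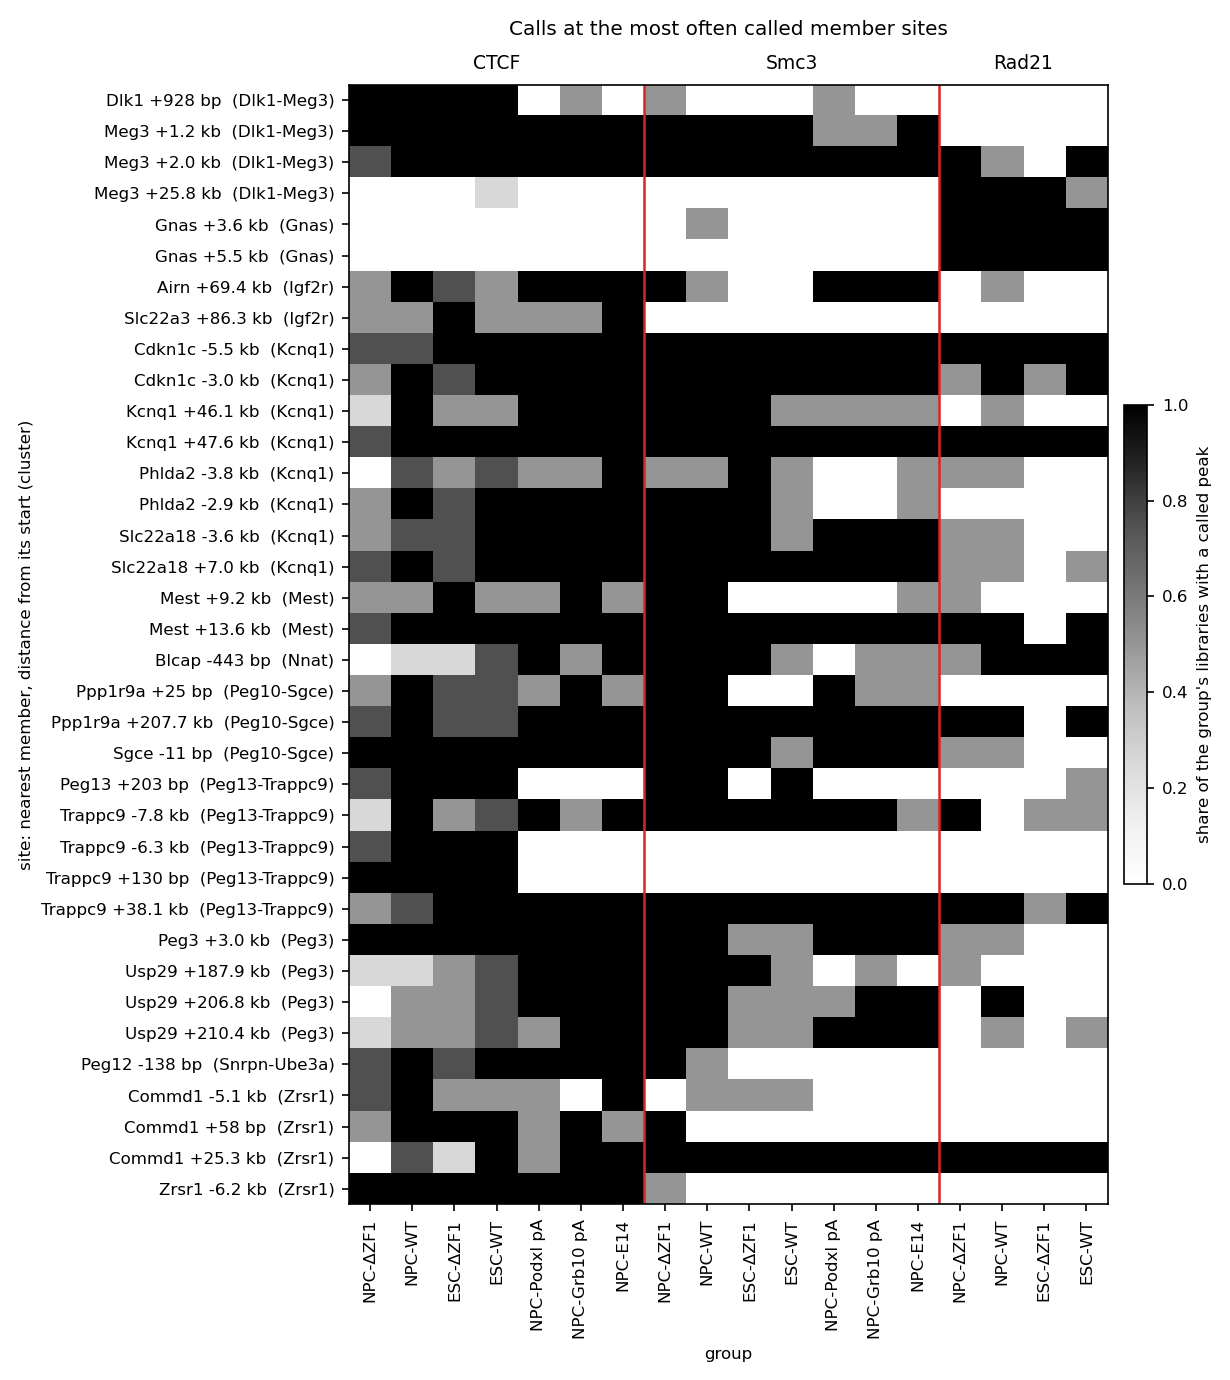
Share of each group's libraries with a called peak (white 0, black 1) at the 36 member sites called in at least 12 CTCF or 7 Rad21 libraries, with CTCF, Smc3 and Rad21 groups in separate blocks and sites named by nearest gene, distance from its start and cluster. The site 6179 bp upstream of Zrsr1 is black in all CTCF groups and nearly white in the cohesin groups, the 2 Gnas sites are black in Rad21 alone, and the Trappc9 +130 and -6320 bp sites are white in E14, Podxl pA and Grb10 pA cells.

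Of the 45 genes, 41 held at least 1 peak and 39 held a CTCF peak. Slc22a2, Nap1l5, Snrpn and Ndn held none in any library. Mirg, a noncoding RNA gene of the Dlk1-Meg3 cluster, held Rad21 peaks in 3 libraries and no CTCF, and Tssc4 held Smc3 peaks in 3 libraries and no CTCF. A CTCF peak in every one of the 22 libraries was held by 12 genes, Meg3, Kcnq1, Cdkn1c, Slc22a18, Sgce, Peg10, Ppp1r9a, Trappc9, Peg3, Usp29, Commd1 and Zrsr1. Of these, 6 (Meg3, Kcnq1, Cdkn1c, Slc22a18, Trappc9 and Commd1) also held Smc3 in all 14 and Rad21 in all 8.

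A reproducible CTCF site, called in at least 3 of 4 rescue libraries or in both libraries of the other lines, was held by 16 of the 45 genes in NPC-ΔZF1 and 26 in NPC-WT. It was held by 23 genes in ESC-ΔZF1 and 24 in ESC-WT, and by 20 in Podxl pA, 24 in Grb10 pA and 21 in E14 NPCs. As shares these were 35.6% in NPC-ΔZF1 and 57.8% in NPC-WT, where all annotated genes gave 11.3% and 22.9%. In ESC-ΔZF1 and ESC-WT the shares were 51.1% and 53.3%, against 19.5% and 22.1% of all genes. In Podxl pA, Grb10 pA and E14 NPCs they were 44.4%, 53.3% and 46.7%, against 18.5%, 24.5% and 24.7%. The imprinted genes were longer than the rest, with a median length of 26540 bp, against 3324 bp over all genes and 17403 bp over protein-coding genes, and the part of length in these shares was not tested. Of protein-coding genes 20.4% held a reproducible site in NPC-ΔZF1 and 40% in NPC-WT, so that the members stood above both backgrounds in each group and the order of the 4 rescue groups was the same in members and in the backgrounds. With every list cut to the length of the shortest, the counts were 9 in NPC-ΔZF1, 12 in NPC-WT, 13 in ESC-ΔZF1 and 14 in ESC-WT. These are 20%, 26.7%, 28.9% and 31.1% of the members, against 5.7%, 7.93%, 7.61% and 8.04% of all genes at the same list length, so that NPC-ΔZF1 was lowest there in both sets. Without NPC-ΔZF1 replicate 3, and with 2 of the other 3 libraries required, 26 genes (57.8%, against 25.7% of all genes) held a site in NPC-ΔZF1, and without replicate 2 there were 25 (55.6%, against 24.2%). Without replicate 1 there were 18 (40%, against 15%), and without replicate 4 there were 17 (37.8%, against 11.7%). Requiring 2 of 4 libraries with none left out also gave 26, and the share of all genes at that rule is not given here. The 26 genes of NPC-WT were counted at 3 of 4 libraries, so the looser NPC-ΔZF1 counts do not show equal genotypes. Leaving out 1 NPC-WT library at a time gave 26 to 29 in NPC-WT. Genes expressed from the maternal copy (21 genes) held a reproducible site in 7 cases in NPC-ΔZF1 and 13 in NPC-WT, and those expressed from the paternal copy (23 genes) in 9 and 13. The maternal genes were longer, with a median of 44357 bp against 14200 bp, and the part of length in these counts was not tested. Herc3 was assigned to neither.

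**Figure D2:**
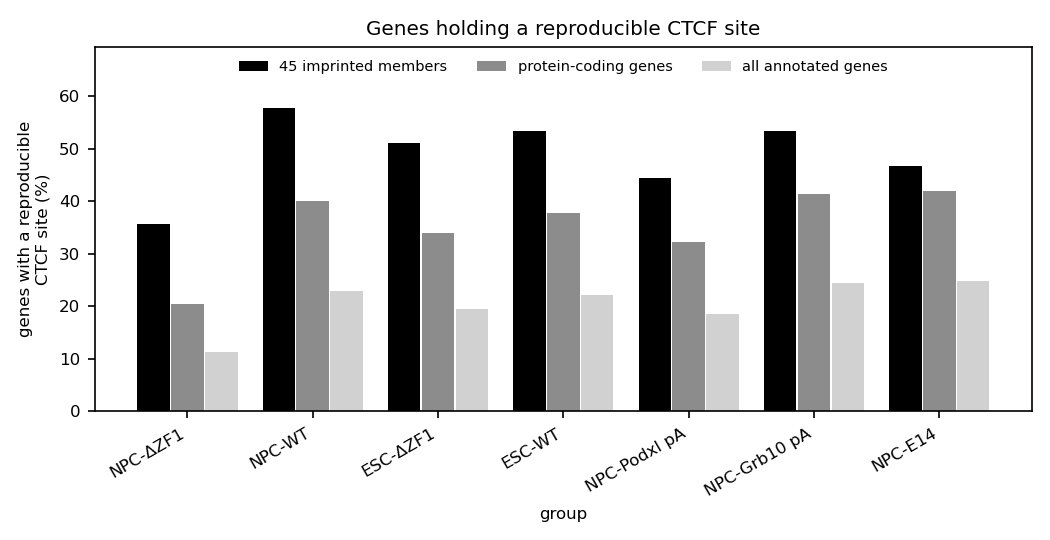
Percentage of the 45 imprinted genes (black), of protein-coding genes (grey) and of all annotated genes (light grey) that held a reproducible CTCF site in each group. The imprinted genes stand highest in each of the 7 groups, and all 3 bars are lowest in NPC-ΔZF1 (35.6%, 20.4% and 11.3%).

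The Dlk1-Meg3 cluster held 28 member sites. Meg3, a maternally expressed noncoding RNA, contained a pair of exonic CTCF sites near its start. The site at +1181 bp was called in all 22 CTCF libraries, at percentiles of 72.3, 51.4, 76.5 and 69.4 in NPC-ΔZF1 and 77.2, 79.5, 89.3 and 60.4 in NPC-WT. In ESC-ΔZF1 it stood at 89.4, 78.9, 92.0 and 45.3, and in ESC-WT at 93.0, 84.9, 77.1 and 74.9. The groups overlapped in both cell types. The ΔZF1 minus WT difference in the rank test, which ranks each library over only the sites called in all 8 libraries, was 0.205 normal-score units (SE 0.346, adjusted p = 0.901, limma) in NPCs and -0.125 (SE 0.358, adjusted p = 0.958, limma) in ESCs, where 1 unit is 1 SD of the ranks within a library. In NPCs this difference had the other sign than that of the mean percentiles over whole lists, and it was smaller than its error. The neighbour at +2038 bp was called in 21 CTCF and all 14 Smc3 libraries. Rad21 was absent from all 8 libraries at +1181 bp and present in 5 at +2038 bp, so that the 2 sites, both with Smc3, differed in their Rad21 calls. Downstream in the Meg3 body, 7 sites carried Rad21 with neither Smc3 nor CTCF, and the site at +25773 bp had Rad21 in 7 libraries and CTCF in 1.

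Dlk1, a paternally expressed gene for a transmembrane protein related to Notch ligands, was marked at +928 bp, in an exon, in all 16 rescue libraries. Its percentiles were 98.0, 24.6, 25.8 and 99.2 in NPC-ΔZF1 and 81.4, 92.8, 32.6 and 89.1 in NPC-WT. They were 97.8, 15.8, 91.1 and 95.3 in ESC-ΔZF1 and 73.9, 41.9, 19.8 and 71.3 in ESC-WT. The lowest value of each group lay in replicate 2 or 3, while NPC-WT replicate 2 and ESC-ΔZF1 replicate 3 were high, and the genotypes overlapped (limma adjusted p = 0.837 in NPCs and 0.599 in ESCs). In the 6 libraries of the other lines it was called in 1, a Grb10 pA library, at percentile 1.33. Rtl1, a retrotransposon-derived gene, had a site in its coding sequence at +5200 bp that was called in both Podxl pA and both Grb10 pA libraries and in neither E14 library, at percentiles of 19.1 and 5.31 in Podxl pA and 19.8 and 9.54 in Grb10 pA.

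The Kcnq1 cluster, which contains the growth-restraining genes Cdkn1c and Phlda2 and the potassium channel gene Kcnq1, held 31 sites, of which 27 had CTCF and 6 were called in 18 to 22 CTCF libraries. The intronic site 47646 bp into Kcnq1 was called in 21 CTCF libraries, in all 14 Smc3 and in all 8 Rad21 libraries. Its CTCF percentiles were 69.2, 8.69 and 39.7 in the 3 NPC-ΔZF1 libraries that called it (replicates 2 to 4), and 68.8, 86.0, 84.3 and 43.1 in NPC-WT. In ESC-ΔZF1 they were 81.6, 81.5, 65.9 and 71.1, and in ESC-WT 94.1, 92.5, 83.5 and 59.9. The genotypes overlapped in both cell types. Its Smc3 percentiles were 97.1 and 96.3 in NPC-ΔZF1, 97.0 and 88.9 in NPC-WT, 98.6 and 98.2 in ESC-ΔZF1 and 99.2 and 97.7 in ESC-WT.

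Upstream of Cdkn1c, a cell cycle inhibitor gene, sites at -3034 and -5454 bp were called in 19 and 20 CTCF libraries and in all 14 Smc3 libraries, and their motif cores are the same 14 bases. The -5454 bp site had Rad21 in all 8 libraries and the -3034 bp site in 6. Slc22a18, a transporter gene, held sites at -3570 and +6965 bp in 18 and 20 CTCF libraries and in 13 and 14 Smc3 libraries. At the site 6965 bp into Slc22a18 the CTCF percentiles were 49.3, 53.4 and 76.4 in NPC-ΔZF1 (replicates 1, 2 and 4) and 80.3, 82.0, 92.4 and 58.0 in NPC-WT, and these overlapped. Phlda2, which limits placental growth, had a site at -2900 bp in 19 CTCF and 8 Smc3 libraries. Kcnq1ot1, the paternally expressed antisense RNA of the cluster, held a single site that was called in 1 CTCF library.

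Of the 4 member sites called in all 22 CTCF libraries, that of the Zrsr1 cluster had the fewest cohesin calls. The site 6179 bp upstream of Zrsr1, a splicing factor gene inside an intron of Commd1, was called in all 22 CTCF libraries but in only 1 of 14 Smc3 and 0 of 8 Rad21 libraries. Its CTCF percentiles were 85.1, 56.1, 92.5 and 94.9 in NPC-ΔZF1 and 96.1, 82.9, 96.8 and 81.1 in NPC-WT. They were 95.3, 61.4, 95.4 and 79.7 in ESC-ΔZF1, 90.8, 75.6, 95.7 and 20.6 in ESC-WT, 84.6 and 69.5 in Podxl pA, 52.9 and 71.0 in Grb10 pA and 90.3 and 76.5 in E14. Among all 1883 sites called in all 22 CTCF libraries, 2.97% had at most 1 Smc3 library. Commd1, a gene of copper and NF-κB regulation, held the opposite case at +25312 bp, where Smc3 was called in all 14 and Rad21 in all 8 libraries. CTCF was called there in 0 of 4 NPC-ΔZF1 and 3 of 4 NPC-WT libraries, in 1 of 4 ESC-ΔZF1 and 4 of 4 ESC-WT libraries, and in 1 Podxl pA, 2 Grb10 pA and 2 E14 libraries. It had more WT than ΔZF1 calls in both cell types, and no ΔZF1 group lost it from every library while every WT library held it. Its Smc3 percentiles were 88.0 and 91.1 in NPC-ΔZF1 and 70.4 and 48.5 in NPC-WT, a difference of 0.893 (SE 0.366, adjusted p = 0.413, limma).

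**Figure D3:**
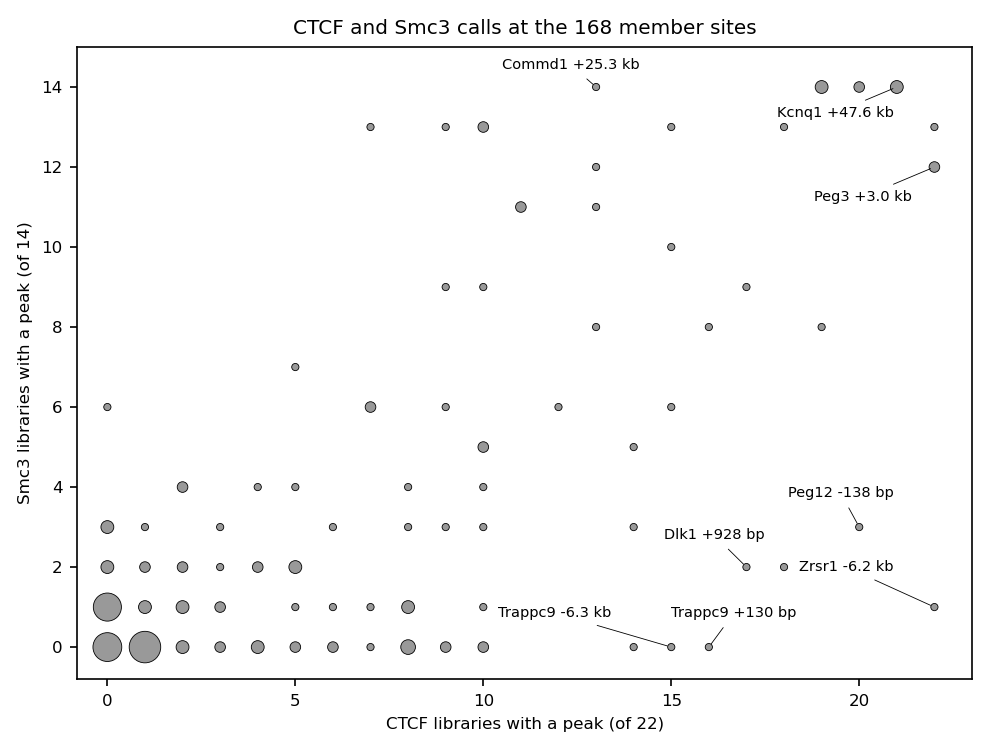
Number of CTCF libraries (of 22, horizontal) and of Smc3 libraries (of 14, vertical) that called each of the 168 member sites, with larger points where more sites share a position. The Zrsr1 -6179 bp site lies at 22 and 1, the Kcnq1 +47646 bp site at 21 and 14, and the Commd1 +25312 bp site at 13 and 14.

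In the Peg10-Sgce cluster the promoter shared by Sgce, which encodes a sarcoglycan, and the retrotransposon-derived gene Peg10 held a site 11 bp upstream of Sgce that was called in all 22 CTCF and 13 Smc3 libraries. It had no motif match in the window, and its percentiles were 79.0, 86.1, 77.0 and 86.9 in NPC-ΔZF1 and 71.7, 92.3, 90.4 and 78.4 in NPC-WT. The intronic site 207675 bp into Ppp1r9a, the gene of an actin-binding protein of neurons, was called in 19 CTCF and 14 Smc3 libraries, with Rad21 in both NPC-ΔZF1, both NPC-WT, neither ESC-ΔZF1 and both ESC-WT libraries. In the Peg3 cluster an intronic site of Peg3, a paternally expressed zinc finger gene, at +2963 bp was called in all 22 CTCF and 12 Smc3 libraries. Its percentiles were 94.9, 81.6, 51.8 and 96.9 in NPC-ΔZF1, 97.3, 93.5, 96.7 and 92.0 in NPC-WT, 97.8, 93.0, 95.4 and 88.0 in ESC-ΔZF1 and 98.0, 95.3, 95.3 and 77.2 in ESC-WT. Usp29, a ubiquitin protease gene, held 3 motif sites far inside its body, at +187901, +206754 and +210361 bp, each called in 13 CTCF libraries. The +206754 bp site was called in 0 of 4 NPC-ΔZF1, 2 of 4 NPC-WT, 2 of 4 ESC-ΔZF1 and 3 of 4 ESC-WT libraries and in both libraries of each other line.

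Mest, a paternally expressed gene of the hydrolase family, held a site at +13601 bp in 21 CTCF, 14 Smc3 and 6 Rad21 libraries, and Copg2, a coat protein gene next to it, had CTCF in 5 libraries in all. In the Nnat cluster a site 443 bp upstream of Blcap was called in 10 CTCF libraries and in 7 of 8 Rad21 libraries, with 0 of 4 CTCF calls in NPC-ΔZF1, 1 of 4 in NPC-WT, 1 of 4 in ESC-ΔZF1 and 3 of 4 in ESC-WT. In the Igf2r cluster, Airn, the paternal antisense RNA that silences Igf2r in cis, held an intronic site at +69364 bp in 17 CTCF and 9 Smc3 libraries. Its Smc3 calls numbered 2 of 2 in NPC-ΔZF1, 1 of 2 in NPC-WT and 0 of 2 in both ESC groups. Slc22a3, an organic cation transporter gene, was marked in an untranslated region at +86325 bp in 14 CTCF libraries with no cohesin. In the Snrpn-Ube3a cluster Peg12 was marked at -138 bp in 20 CTCF and 3 Smc3 libraries, and the ubiquitin ligase gene Ube3a at +248 bp in 9 CTCF libraries. Magel2 and Mkrn3 had CTCF in 5 and 1 libraries. At the level of whole genes, CTCF was called in 19 libraries for Gnas, 16 each for Nespas, Slc22a3 and Blcap, 14 for Cd81, 11 for Zim1, 10 each for Rian, Ascl2 and Igf2r, and 9 for Nnat. The most called site of the Gnas cluster, 2039 bp upstream of Nespas, had CTCF in 11 and Smc3 in 11 libraries, with 0 of 4 CTCF calls in NPC-ΔZF1, 3 of 4 in NPC-WT, 3 of 4 in ESC-ΔZF1 and 1 of 4 in ESC-WT. Zim1 had Smc3 in 11 libraries, and Igf2r, which encodes a receptor that clears the growth factor Igf2, had it in 2.

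The clusters with the fewest calls were Nap1l5, Slc38a4, Rasgrf1 and Impact. Herc3 held 1 site, at +217 bp, in 5 CTCF libraries. Slc38a4, an amino acid transporter gene, had CTCF in 4 libraries and Rasgrf1, a Ras exchange factor gene, in 5, and neither held a reproducible site in any group. Impact, a translational regulator gene, had a site at +20292 bp in 8 CTCF libraries and another at +17727 bp with Rad21 in 6 libraries and no CTCF. Plagl1, a zinc finger gene, held its most called site at +26900 bp, in 10 CTCF, 13 Smc3 and 5 Rad21 libraries. In the Gnas cluster, which codes for the stimulatory G protein alpha subunit, 2 intronic sites at +3590 and +5450 bp had Rad21 in all 8 libraries and no CTCF in any of 22. The +3590 bp site stood at Rad21 percentiles of 99.1 and 95.3 in NPC-ΔZF1, 88.2 and 95.1 in NPC-WT, 61.7 and 95.3 in ESC-ΔZF1 and 80.3 and 95.4 in ESC-WT. Only 1 of 14 Smc3 libraries called it, at percentile 5.14, so that the 2 cohesin subunits differed there. Of 5 member sites with Rad21 in all 8 libraries, 2 (these Gnas sites) had no CTCF, where 7.14% of 630 such sites did.

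The first comparison asked whether CTCF without zinc finger 1 occupied the imprinted genes as WT CTCF did. In NPCs, 16 member sites were reproducible in ΔZF1 and 40 in WT, and all 16 were among the 40, a retained share of 40%, against 36.7% of all 16176 reproducible WT sites. In ESCs 27 were reproducible in ΔZF1 and 35 in WT, and 21 were shared, which is 60% of the WT sites, against 64.3% over all sites. The pooled retained shares of the members thus lay near those of all sites, but the clusters differed. In NPCs the reproducible sites in ΔZF1 and WT numbered 3 and 12 at Kcnq1, 0 and 4 at Gnas and 1 and 1 at Peg3. In ESCs they numbered 6 and 8, 1 and 1, and 1 and 6 at the same clusters. Only Mest (2 and 1) and Peg10-Sgce (4 and 3), both in ESCs, had more in ΔZF1. In E14 NPCs Peg3 had 6. These cluster counts have no background beside them and were not tested. A switched site, called in all 4 libraries of one group and none of the other, was not found among the members in either direction. Over all sites, 0% of 2519 were called in NPC-ΔZF1 alone and 2.52% of 8849 in NPC-WT alone, with 0 of 6 and 0 of 28 members. In ESCs the shares were 0.0149% of 6726 for ΔZF1 alone and 0.311% of 8361 for WT alone, with 0 of 16 and 0 of 20 members. Within a batch, with 2 libraries a group, most counts were not 0. With replicates 2 and 3 alone, 0 of 11 members were called in NPC-ΔZF1 alone (0.804% of all sites) and 16 of 36 (44.4%) in NPC-WT alone, against 41.4% of 15117 sites. In ESCs the same replicates gave 1 of 18 (5.56%) in ΔZF1 alone, against 2.51%, and 8 of 32 (25%) in WT alone, against 15% of 16082. With replicates 1 and 4 alone, 3 of 30 (10%) were called in NPC-ΔZF1 alone, against 10.7%, and 4 of 37 (10.8%) in NPC-WT alone, against 5.5%. In ESCs they gave 3 of 40 (7.5%) in ΔZF1 alone, against 7.99%, and 0 of 25 in WT alone, against 0.884%. The shares of members and of all sites thus moved together from batch to batch. Rank tests over sites called in all 8 libraries (limma, Benjamini-Hochberg adjusted p under 0.05) called 0 of 6 members in NPCs, where 0% of 2366 sites were called, and 0 of 14 in ESCs, where 0.0386% of 5187 were. At an unadjusted p under 0.05 there were 0 members in NPCs, where 7.52% of all sites stood, and 1 of 14 in ESCs, against 8.39% of all sites. This was Commd1 at +58 bp (0.893, SE 0.295, limma adjusted p = 0.428). These tests kept only sites that every library called, so they cannot show the loss of a site in ΔZF1. With sites called in at least 4 of 8 libraries, at the lowest score where uncalled, 0 of 40 members passed in NPCs. Of all 17598 such sites 225 passed, all lower in ΔZF1, and the median difference was -0.927, against -1.14 in members. In ESCs 0 of 48 members and 27 of 22765 sites passed. The part of list length was not tested.

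**Figure D4:**
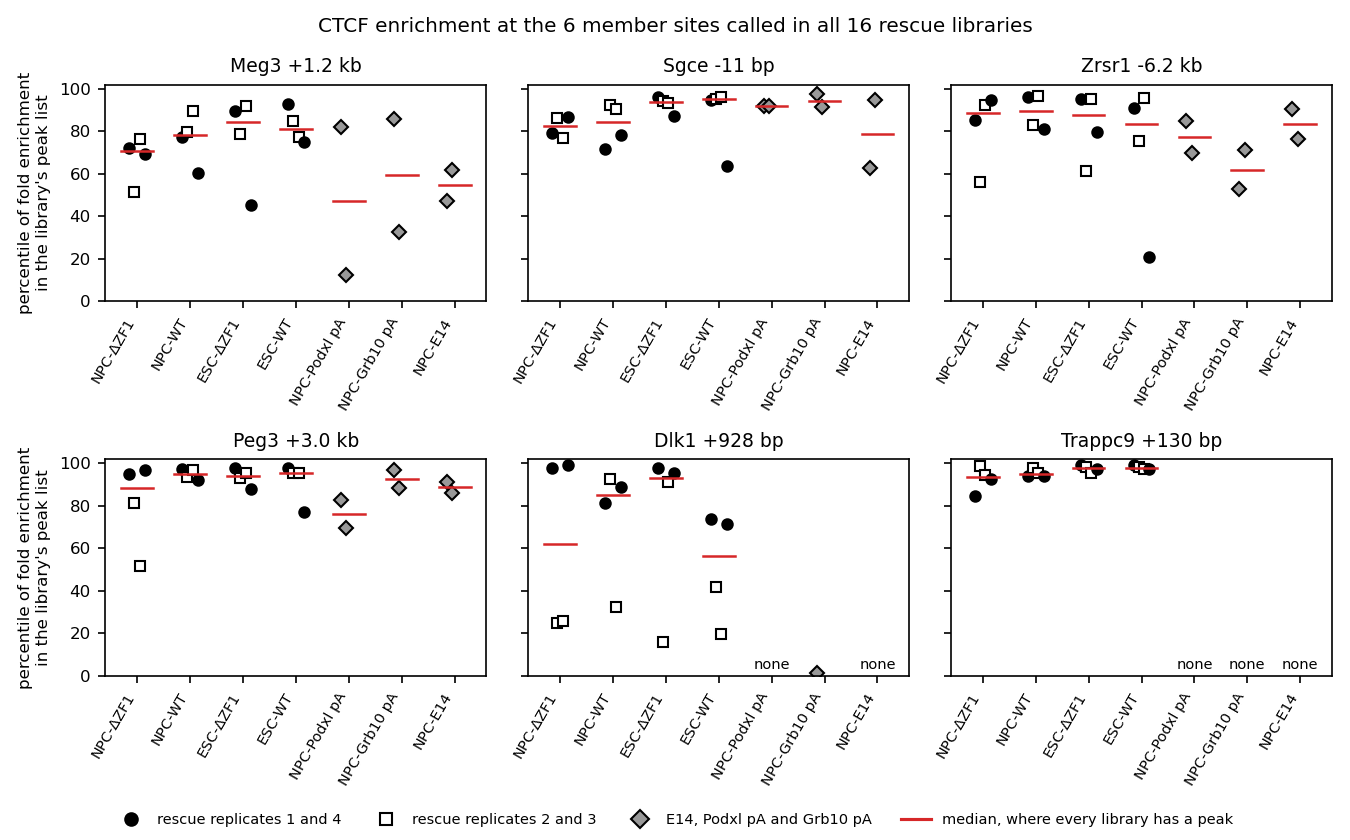
CTCF percentile of fold enrichment in each library, by group, at the 6 member sites called in all 16 rescue libraries, with rescue replicates 1 and 4 as filled circles, rescue replicates 2 and 3 as open squares, the other lines as diamonds and the median as a red line where every library of a group has a peak. The ΔZF1 and WT points overlap in both cell types at each site, and the Trappc9 +130 bp site has no peak in Podxl pA, Grb10 pA and E14 NPCs.

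The calls near gene starts differed between the batches. In NPC-ΔZF1, 18 member sites were called in both of replicates 1 and 4 and in neither of 2 and 3, and 1 site (Airn +69364 bp) showed the reverse. In ESC-ΔZF1 the same counts were 15 and 0, in NPC-WT 4 and 1 and in ESC-WT 2 and 0. Over all sites the counts were 7230 and 271 in NPC-ΔZF1, 1378 and 1469 in NPC-WT, 4181 and 66 in ESC-ΔZF1 and 915 and 57 in ESC-WT, so that the larger ΔZF1 counts were not particular to the members. Of the 18 NPC-ΔZF1 sites 61.1% lay within 1 kb of a gene start. Over all sites called in replicates 1 and 4 alone this share was 55.4% in NPC-ΔZF1, 61.2% in NPC-WT, 52.4% in ESC-ΔZF1 and 59.1% in ESC-WT. Kcnq1 at +898 bp, Ascl2 at +990 bp and Cd81 at +374 bp were in this set in both ΔZF1 groups. At +898 bp of Kcnq1 the percentiles were 82.9 and 94.3 in replicates 1 and 4 of NPC-ΔZF1, against 62.2, 53.8, 3.31 and 84.6 in the 4 NPC-WT libraries. In ESCs it stood at 84.3 and 85.7 in the same replicates of ESC-ΔZF1 and at 36.3 and 18.8 in those of ESC-WT. At +990 bp of Ascl2, a transcription factor gene of the placenta, the percentiles were 81.1 and 90.8 in replicates 1 and 4 of NPC-ΔZF1 and 82.7, 83.3, 51.2 and 79.4 in NPC-WT. Where replicates 1 and 4 of ΔZF1 called these starts, they thus ranked within the range of the WT libraries or above it. In NPC-ΔZF1, replicates 1 and 4 held 13639 and 33452 peaks, and replicates 2 and 3 held 10242 and 5755. Batch and list length cannot be told apart there, and the part of either in the ΔZF1 calls at these starts was not tested.

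In all, 13 sites within 1 kb of a member's start were called in at least 3 libraries of a CTCF group, and 10 of them had more NPC-WT than NPC-ΔZF1 calls, 3 (at Dlk1, Sgce and Trappc9) had equal numbers and 0 had more NPC-ΔZF1 calls. The 13 sites were chosen by their calls, those in NPC-WT included, so these counts cannot show a difference between genotypes. Without such a choice, 18 member sites had more calls in NPC-ΔZF1 and 63 had more in NPC-WT. Over all sites, 11796 had more calls in NPC-ΔZF1 and 27914 had more in NPC-WT. Cdkn1c at +646 bp was called in 2 NPC-ΔZF1 libraries, at percentiles of 20.8 and 92.5, and in 3 NPC-WT libraries, at 32.4, 45.1 and 62.3, with no cohesin in any library. Commd1 at +58 bp stood at 85.2 and 94.5 in 2 NPC-ΔZF1 libraries and at 92.9, 48.2, 57.5 and 72.1 in NPC-WT. In ESCs all 8 libraries called the Commd1 start, at 75.5, 18.7, 48.6 and 62.2 in ESC-ΔZF1 and 46.8, 29.7, 22.7 and 14.2 in ESC-WT. None of these pairs of groups was separated without overlap.

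Cell type was compared within each rescue line. Between WT NPCs and WT ESCs, 1 of 28 members was called in all 4 NPC libraries and no ESC library, where 0.429% of all sites were. It was the site 374 bp into Cd81, a tetraspanin gene, at percentiles of 6.51, 17.2, 11 and 18.6 in NPC-WT, which placed it among the weaker peaks of these lists. The same site was called in replicates 1 and 4 of NPC-ΔZF1, at 49.2 and 73.0, and of ESC-ΔZF1, at 15.8 and 22.2. No member was called in WT ESCs alone (background 0.383%). In ΔZF1 cells no member was called in NPCs alone (0%) or in ESCs alone (1.9%). The rank test called 0 of 16 members in WT, where 0.251% of 5982 sites were called, and 0 of 6 in ΔZF1, where 0% of 2284 were. At an unadjusted p under 0.05 there were 2 of 16 in WT (Commd1 +58 bp and Cdkn1c -3034 bp), against 16.2% of all sites, and 0 of 6 in ΔZF1, against 5.25%. With the replicate number as a block (paired libraries), 160 of 5982 sites were called in WT, 0 of them members, and 5 members had an unadjusted p under 0.05, against 22.6% of all sites. Whether the ΔZF1 effect differed between NPCs and ESCs was tested by an interaction term over 2122 sites, and 0 were called. The 6 members among them had adjusted p = 0.998 (limma).

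WT rescue NPCs were also set against parental E14 NPCs. The 2 groups differ in the CTCF protein, the clone and the treatment at once, so that these cannot be told apart. Of 28 member sites called in all 4 NPC-WT libraries, 10 (35.7%) were absent from both E14 libraries, against 12.8% of 8849 sites over the genome. They lay at Dlk1 (-6583 and +928 bp), Gnas (+44732 bp), Ascl2 (+990 bp), Cd81 (+374 bp), Kcnq1 (+898 bp), Peg13 (+1107 and +203 bp) and Trappc9 (+130 and -6320 bp). A CTCF motif match stood at 3 of the 10, against 34.9% of all 1137 such sites, and 6 lay within 1 kb of a gene start, against 56.3%. Smc3 was called in both NPC-WT libraries at 1 of the 10, against 9.76%. The motif, promoter and cohesin shares of these 10 sites thus lay near those of all sites called in the rescue NPCs and not in E14. The share of 35.7% itself is a description, with no test. Replicates 1 and 4 of NPC-WT alone gave 17 such sites of 37 (45.9%), against 28.9% of 12755 over the genome.

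In the reverse direction 3 of 35 member sites called in both E14 libraries (8.57%, against 10.8% of 21104) were absent from all 4 NPC-WT libraries. They lay inside Gnas (+26742 bp), Usp29 (+228192 bp) and Plagl1 (+26900 bp), and all 3 had a motif match. The Gnas site stood at CTCF percentiles of 78.0 and 61.8 in E14, and Smc3 was called there in both NPC-WT libraries, at 88.1 and 86.1, although CTCF was not. Among the other rescue groups, CTCF was called there in ESC-WT replicates 1 to 3, at 59.3, 42 and 63.7, and in no ESC-ΔZF1 or NPC-ΔZF1 library. Over all 16 rescue libraries and none of the other 6, 1 of 6 members was called, where 4.43% of 2122 sites were.

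That member was the start of Trappc9, a gene for a trafficking complex subunit whose intron contains the paternally expressed RNA Peg13. The site at +130 bp, in the 5′ untranslated region, stood at percentiles of 84.6, 98.6, 94.4 and 92.9 in NPC-ΔZF1 and 94.2, 98.0, 95.4 and 94.1 in NPC-WT. In ESC-ΔZF1 it stood at 99.1, 98.1, 95.7 and 97.5 and in ESC-WT at 99.1, 98.1, 97.6 and 97.4. Its fold enrichment reached 92.2 in ESC-WT replicate 1, and no Smc3 or Rad21 library called it. The site had no motif match and 13 CpG dinucleotides in its window. Such sites of the rescue lines rarely held the motif (3.19% of 94). The nearby site at -6320 bp showed the same calls except in NPC-ΔZF1, where 3 of 4 libraries had it. Inside Trappc9, at +38112 bp, CTCF was called in 19, Smc3 in 14 and Rad21 in 7 libraries, with CTCF percentiles of 65.8 and 70 in 2 NPC-ΔZF1 libraries and 82.9, 81.0 and 72.4 in 3 NPC-WT libraries. At -7838 bp a site with a perfect motif was called in 1 of 4 NPC-ΔZF1, 4 of 4 NPC-WT, 2 of 4 ESC-ΔZF1 and 3 of 4 ESC-WT libraries and in 5 of the 6 other libraries, and in 13 of 14 Smc3 libraries.

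The site 203 bp into Peg13 combined both features. It held a motif, it was called in 3 of 4 NPC-ΔZF1 and in all NPC-WT, ESC-ΔZF1 and ESC-WT libraries, and it was absent from all 6 Podxl pA, Grb10 pA and E14 libraries. Its CTCF percentiles were 83.4, 73.6 and 83.0 in NPC-ΔZF1 and 95.4, 88.2, 76.3 and 62.2 in NPC-WT. Smc3 was called there in the same rescue lines except ESC-ΔZF1, with percentiles of 74.8 and 66.9 in NPC-ΔZF1 and 58.5 and 44.1 in NPC-WT, 0 calls in ESC-ΔZF1, values of 15.4 and 18.3 in ESC-WT, and 0 calls in the 6 other libraries.

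Truncation of the Podxl or the Grb10 RNA was compared with parental E14 in NPCs. In Podxl pA, 1 of 26 members (Rtl1 +5200 bp) was called in both libraries and in neither E14 library, where 2.08% of sites were, and 1 of 35 (Gnas +26742 bp) was called in E14 alone (8.34%). Leaving out 1 library at a time gave 1 to 3 members in Podxl pA alone and 1 to 10 in E14 alone, with 10 of 35 without Podxl pA replicate 1, where 40.6% of all sites were called. In Grb10 pA, 3 of 37 (Rtl1 +5200 bp, Rian +8843 bp and Plagl1 +67012 bp) were called in Grb10 pA alone (6.45%), and 1 of 35 (Commd1 -5122 bp) in E14 alone (9.94%). Leaving out 1 library gave 5 to 9 in Grb10 pA alone, where 10.5% to 19.3% of all sites were called. It gave 3 to 8 in E14 alone, where 16% to 20.3% were. Both comparisons share the E14 libraries. Of the 3 sites called in Grb10 pA alone, the Plagl1 site ranked highest, at percentiles of 64.6 and 58.2 in Grb10 pA. With limma, 0 of 22 CTCF and 0 of 17 Smc3 member sites were called in either line, and the shares over all 10876 CTCF and 3812 Smc3 sites were 0% as well. At an unadjusted p under 0.05 there were 2 CTCF members in Podxl pA, against 5.99% of all sites, and 3 in Grb10 pA, against 15.9%. There were 0 Smc3 members in either, against 1.44% and 2.75%. For Smc3, 0 of 23 members were called in Podxl pA alone (3.72% of all sites) and 2 of 25, Kcnq1 +8595 bp and Slc22a18 +3126 bp, in E14 alone (14.2%). In Grb10 pA 1 of 22, Peg3 +149 bp, was called in Grb10 pA alone (5%) and 1 of 25, Kcnq1 +8595 bp, in E14 alone (13.2%). With 2 libraries in a group, these tests are limited to large differences.

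Cohesin was compared in the rescue lines with 2 libraries a group. For Smc3 in NPCs, 9 of 52 member sites (17.3%, against 14.5% of 24315) were called in both ΔZF1 libraries and neither WT library, and 0 of 30 in WT alone (0.804%). The 9 sites lay at Meg3 (-1300 and +2665 bp), Nespas (+59 bp), Tssc4 (-125 bp), Nnat (-1345 and +43 bp), Peg3 (+149 bp), Zrsr1 (+494 bp) and Commd1 (+58 bp), and the 2 NPC-ΔZF1 lists, at 30516 and 34104 peaks, were longer than the NPC-WT lists, at 27798 and 13710. In ESCs 0 of 23 were called in ΔZF1 alone (5.98% of 10298) and 2 of 17 (11.8%) in WT alone, against 1.74% of 7592. These were Blcap +3083 bp, at Smc3 percentiles of 1.94 and 0.808 in ESC-WT, and Peg13 +203 bp, at 15.4 and 18.3, so that both ranked low in these lists. No member passed the rank test for Smc3 between genotypes, in NPCs (0 of 13, background 0%) or in ESCs (0 of 13, background 0.0344%), and 1 member in each cell type had an unadjusted p under 0.05, against 10% of all sites in NPCs and 10.7% in ESCs.

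Between WT NPCs and WT ESCs, 0 of 17 members had Smc3 in ESCs alone (0.988% of all) and 4 of 30 had it in NPCs alone (14.7% of all), at Meg3 (+7828 bp), Kcnq1 (+45004 bp), Mest (+9246 bp) and Ppp1r9a (+25 bp). Smc3 rank passed the test at 3 of 13 members, where 15.3% of 5820 sites did, and all 3 were lower in NPCs. The intronic Ppp1r9a site at +207675 bp stood at 86.4 and 57.7 in NPC-WT and 98.0 and 95.7 in ESC-WT, with no overlap (-1.79, SE 0.368, adjusted p = 0.00614, limma). The motif site upstream of Trappc9 at -7838 bp stood at 86.2 and 75.6 in NPC-WT and 95.5 and 91.1 in ESC-WT (-1.1, SE 0.325, adjusted p = 0.0344, limma). The intronic Kcnq1 site at +47646 bp stood at 97.0 and 88.9 in NPC-WT and 99.2 and 97.7 in ESC-WT (-1.02, SE 0.332, adjusted p = 0.0485, limma). Leaving out 1 library at a time gave 0 to 3 member calls, with 0 without NPC-WT replicate 2 or ESC-WT replicate 2, 2 (Ppp1r9a and Meg3 +1181 bp) without ESC-WT replicate 1, and only the Ppp1r9a call stood without NPC-WT replicate 1, NPC-ΔZF1 replicate 1 or NPC-ΔZF1 replicate 2.

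For Rad21 in ESCs, 0 of 7 member sites were called in ΔZF1 alone (0.338% of 888 sites), and 5 of 13 (38.5%, against 46.9% of 3242) were called in both WT and neither ΔZF1 library: Meg3 (+2038 bp), Gnas (+26742 bp), Impact (+17727 bp), Mest (+13601 bp) and Ppp1r9a (+207675 bp). The 2 ESC-ΔZF1 lists held 1306 and 2347 Rad21 peaks and the ESC-WT lists 3539 and 10415, and the part of list length in these calls was not tested. At 4 of the 5 sites Smc3 was called in both ESC-ΔZF1 libraries, and Impact had no Smc3 there. In NPCs 1 of 20 members (Trappc9 -7838 bp) had Rad21 in ΔZF1 alone (7.57%) and 1 of 15 (Usp29 +206754 bp) in WT alone (14.2%). Between WT NPCs and WT ESCs, 3 of 15 (Meg3 +12049 bp, Mest +20407 bp and Usp29 +206754 bp) had it in NPCs alone (10.4%) and 0 of 13 in ESCs alone (12.9%).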

How the data were processed

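Of 54 samples, 44 ChIP libraries had a peak list and the 10 inputs were not analysed here. The authors aligned reads to mm10 with Bowtie2, kept mapping quality 30 with SAMtools, removed duplicates with Picard, removed blacklisted regions with bedtools and called peaks per library with MACS2 (paired ends, q-value 0.01; versions not given in the sources used here). The deposited lists give fold enrichment at the summit (a linear ratio), −log10 of the p-value and −log10 of the q-value, and no counts. Without counts, the study's count-based test (DiffBind) could not be run, and a rank test took its place. Read depth is not stated. Whole pileups could be recovered (tolerance 0.002) for over 99% of peaks in 26 libraries. The lowest background coverage recovered did not always follow the number of peaks. It was 1.96 in ESC-WT CTCF replicate 4 (11189 peaks) and 1.48 in replicate 1 (43003 peaks). The number of peaks is thus given as list length and not as a measure of read depth.

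Summits were assigned to GENCODE genes by the window of 10 kb upstream to gene end, and peaks overlapping by at least 1 bp were merged into sites. Within a library, fold enrichment over the sites tested was turned into ranks and normal scores, so that an effect is in SD units and is not a fold. Scores were tested with limma 3.58.1 in R 4.3.3 over all sites called in every library compared, with Benjamini-Hochberg adjusted p under 0.05. Other steps used python 3.11.15, numpy 2.4.6, pandas 2.3.3, scipy 1.17.1 and matplotlib 3.10.9, and the scripts were tested on simulated data. There the CTCF rank test between ESC genotypes recovered 24 of 100 sites raised 2-fold and 92 of 100 raised 4-fold. Differences near 2-fold may therefore go uncalled. Sites given with values were member sites switched or called in a CTCF comparison, the site of each cluster called in most CTCF libraries (ties by median percentile), and sites within 1 kb of a member's start called in at least 3 libraries of a CTCF group; other sites described were chosen after their values were seen. The members, lists and tests were chosen with earlier results of these data known.

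Same-numbered CTCF rescue libraries deviated together (r 0.218 to 0.587, every pair over 0.1), so the replicate numbers were taken to pair the libraries in an alternative fit. The main rank tests used no pairing. NPC-ΔZF1 replicate 1 correlated best with replicate 4 of both NPC-WT and ESC-ΔZF1 and not with their replicate 1. Peak names inside lists labelled replicate 4 carry the number 2, and the labels were followed, so the pairing, the batch and the 4 replicates of a group rest on those labels. The labels do not say that replicates were separate cultures, so p-values measure the spread between these libraries. An exact permutation test cannot go below p = 0.0286 for 4 against 4 libraries or 0.333 for 2 against 2. Alternatives varied the ranking, the calls required, the gene window, list length, the batch and the libraries included. The sequence of 1 site is not reported here.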

Additional observations from a re-analysis of the deposited data

Results flagged for a closer look

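In groups of 4 CTCF libraries, 5 of 60 groups of values tested held a library far from the other 3 by Dixon's criterion at 95%, which chance gives in about 1 of 20 groups. In ESC-ΔZF1, replicate 4 called 2.44 member sites per 1000 peaks, and the other libraries called 1.77 to 1.81. At Dlk1 +928 bp, ESC-ΔZF1 replicate 2 stood at percentile 15.8, and the others at 91.1 to 97.8. Replicate 4 of ESC-WT stood low at 2 sites, with 63.8 at Sgce -11 bp, where the others were at 94.9 to 96.2, and 77.2 at Peg3 +2963 bp, where the others were at 95.3 to 98. At Ascl2 +990 bp, NPC-WT replicate 3 stood at 51.2 and the others at 79.4 to 83.3.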

How the results depend on the processing

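Of 311 alternative values for 30 results, 247 stayed within 1.5 times the reported count and 64 moved; the cause was not tested. With the replicate block (paired libraries) the CTCF rank tests called 0 members in all 4 rescue comparisons, as without it, and the Smc3 test between WT NPCs and ESCs called 3. Over all sites the block gave 3 calls between genotypes in ESCs, 0 in NPCs, 160 between WT NPCs and ESCs and 0 between ΔZF1 NPCs and ESCs, and 2, 0, 5 and 0 members had an unadjusted p under 0.05, against 17.9%, 14.2%, 22.6% and 11.5% of all sites. With sites that some of the libraries lacked also tested, at the lowest score where uncalled, 1 of 55 members passed between WT NPCs and ESCs (Cd81 +374 bp, adjusted p = 0.0071, limma), where 71 of 23052 sites did. No ESC-WT library called this Cd81 site, so the result restates its calls and adds no separate support. Leaving out each library gave 0 to 0 CTCF calls in every rank comparison and 0 to 3 Smc3 calls between WT NPCs and ESCs.

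With replicates 1 and 4 alone, switched members numbered 3 for ESC-ΔZF1 over ESC-WT (7.5%, against 7.99% of all sites). Between NPC genotypes they numbered 3 for ΔZF1 (10%, against 10.7%) and 4 for WT (10.8%, against 5.5%). Between cell types they numbered 3 for NPC-WT (8.11%, against 6.61%), 1 for NPC-ΔZF1 (3.33%, against 7.01%) and 1 for ESC-ΔZF1 (2.5%, against 9.28%). With replicates 2 and 3 alone they numbered 1 for ESC-ΔZF1 (5.56%, against 2.51%) and 8 for ESC-WT (25%, against 15%) between genotypes. In NPCs they numbered 16 for WT over ΔZF1 (44.4%, against 41.4%). Between cell types these replicates gave 7 for NPC-WT (19.4%, against 8.65%) and 3 for ESC-WT (9.38%, against 8.03%). For ESC-ΔZF1 over NPC-ΔZF1 they gave 3 (16.7%, against 26.3%). Against E14, an alternative chosen after seeing the data, replicates 1 and 4 gave 17 sites in NPC-WT alone (45.9%, against 28.9% of all sites). In E14 alone they gave 8 (22.9%, against 24.1%), and replicates 2 and 3 gave 5 there (14.3%, against 17.8%). With equal peak numbers, 2 were called in NPC-WT and no ESC-WT library (11.8%, against 1.45%). Between Podxl pA and E14, 0 were called in Podxl pA alone (background 6.37%) and 2 in E14 alone (9.09%, against 6.83%).

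Leaving out 1 library, switched members between ESC genotypes ranged from 0 to 0 for ΔZF1 and 0 to 1 for WT. The 1 came without ESC-ΔZF1 replicate 1 (5%, against 2.49% of all sites) or ESC-WT replicate 4 (3.12%, against 2.15%). In NPCs they ranged from 0 to 0 for ΔZF1 and 0 to 4 for WT. The 4 came without NPC-WT replicate 4 (11.4%, against 8.92%), and 2 without NPC-ΔZF1 replicate 4 (7.14%, against 12%). Between WT cell types they ranged from 1 to 3 for NPCs and 0 to 2 for ESCs. The 3 came without ESC-WT replicate 1 (10.7%, against 3.88%) and the 2 without ESC-WT replicate 4 (6.25%, against 4.14%). Between ΔZF1 cell types they ranged from 0 to 0 for NPCs and 0 to 1 for ESCs (5.56%, against 7.66%). Against E14 they ranged from 10 to 14 for NPC-WT and 3 to 9 for E14. The 14 came without NPC-WT replicate 3 (42.4%, against 21.6%) and the 9 without E14 replicate 1 (18%, against 17.6%). For Podxl pA they ranged from 1 to 3 and for E14 from 1 to 10. The 3 came without Podxl pA replicate 2 (6.67%, against 11.4%) and the 10 without Podxl pA replicate 1 (28.6%, against 40.6%). For Grb10 pA they ranged from 5 to 9 and for E14 from 3 to 8. The 9 came without Grb10 pA replicate 2 (17.3%, against 15.3%) and the 8 without E14 replicate 1 (16%, against 16.7%).

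Members with a reproducible site numbered 10 in NPC-ΔZF1, 14 in ESC-ΔZF1 and 15 in ESC-WT with the gene body alone, and 9 in NPC-ΔZF1, 12 in NPC-WT, 13 in ESC-ΔZF1 and 14 in ESC-WT with equal peak numbers. Requiring 2 of 4 libraries gave 26 in NPC-ΔZF1, and all 4 gave 9 in NPC-ΔZF1 and 15 in ESC-ΔZF1. For the gene body, 2 of 4 and all 4 rules, the shares of all genes and the NPC-WT counts are not given here. Those counts therefore show neither a change particular to the members nor a difference between NPC genotypes. Leaving out a library gave 17 to 26 in NPC-ΔZF1 (25 without replicate 2, 26 without replicate 3), 26 to 29 in NPC-WT, 23 to 30 in ESC-ΔZF1 and 24 to 31 in ESC-WT.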
